A study of Mus musculus with 6 samples.

Results

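The 8 genes described here belong to the neutrophil primary granule and to the cells that fill it, and were measured in c-Kit+ mouse bone marrow cells, which carry the receptor KIT on their surface and include most early blood progenitors. The genes were Mpo, Elane, Prtn3, Ctsg, Ctsc, Ms4a3, Nkg7 and Calr, and they were chosen by name. They are 8 of the 20097 genes listed in the deposited data, and all 8 passed the filter on low values that left 15410 genes for testing. The study compared 3 libraries of genotype WT with 3 of genotype Runx1 KO, made from poly-A RNA with a strand-specific kit and sequenced in 1 pool. Each library held between 23297526 and 26793380 reads over the listed genes. The sources used here give no strain, age, sex, treatment, Runx1 allele or means of deletion for either group. They do not say whether the libraries of a group came from separate mice, so p-values measure only the spread between these libraries, which may be technical.

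The targeted gene was checked first, and its transcript was not reduced in the libraries that carry the knockout label. Levels are normalised read counts, the reads of a gene scaled by 1 factor per library, and log2 changes are Runx1 KO minus WT on log2(normalised read count + 1). Runx1 stood at 3031, 2799 and 3497 normalised reads in WT and at 6648, 6720 and 5830 in Runx1 KO. Its log2 change was 1.04 (SE 0.10, adjusted p = 0.00163 by limma), so the level of the whole gene does not by itself check the genotype labels, and no exon was examined here. Kit, the marker of the selected cells, was present in every library at 7979 to 13684 normalised reads, with all 3 Runx1 KO libraries above all 3 WT libraries.

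Primary, or azurophil, granules are the first granules a developing neutrophil makes, at the promyelocyte stage, and they are packed with myeloperoxidase and a set of related serine proteases. The proteases are made as inactive precursors that cathepsin C trims to their active form, and the peroxidase folds in the endoplasmic reticulum with help from calreticulin. Transcription of the myeloperoxidase and serine protease genes in early granulocytic cells is known to depend on PU.1, C/EBP factors, MYB and RUNX1. It stops as the cells go on to make secondary and tertiary granules.

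In the libraries labelled Runx1 KO, 4 of the 8 genes were lower by limma at an adjusted p under 0.05 and none was higher. Over all genes tested, 21.9% were called, 11.3% lower and 10.6% higher. In 5 of the 8 every Runx1 KO library lay below every WT library, a separation seen in 21.9% of all genes tested in that direction and in 43.3% in either direction. Ms4a3, a membrane protein of granulocyte and monocyte progenitors, fell the most, by 36.9% of its WT mean, and Nkg7, a granule membrane protein, fell by 29.4%. The proteases Prtn3 and Elane fell by 25.3% and 21.7%. Mpo, Ctsg, Ctsc and Calr did not pass the test. The count of calls was 2 without Runx1 KO replicate 2 and 2 without Runx1 KO replicate 3. The estimates of all 8 genes lay below 0, with a median log2 change of -0.30, against -0.0042 over all genes tested and -0.07 over the 1301 tested genes at least as abundant as the least abundant of the 8, of which 18.9% were called lower. In a bulk sample, fewer cells of a type and less RNA per cell cannot be told apart.

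**Figure D1:**
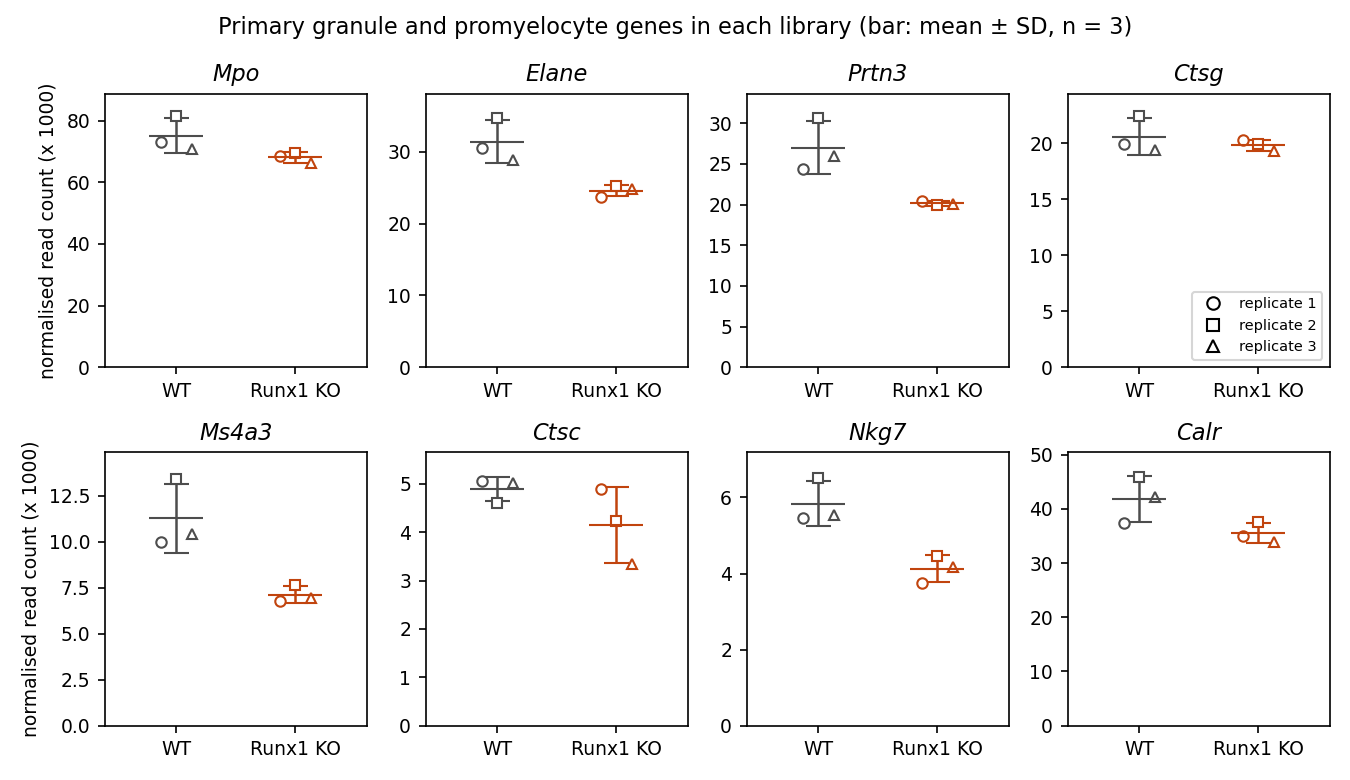
Each panel plots 1 gene, with the normalised read count on a vertical axis that starts at 0, for the 3 WT libraries (grey) and the 3 Runx1 KO libraries (orange). Marker shapes give the replicate number and bars give mean ± SD (n = 3); the groups are fully separate for Mpo, Elane, Prtn3, Ms4a3 and Nkg7 and overlap for Ctsg, Ctsc and Calr.

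The sequences just upstream of 6 of the genes are shown so that letters known from the binding sites of these factors can be set beside the changes. They are from RefSeq on GRCm38.p6, where all 8 genes matched, each with 1 window. They run 5′ to 3′ on the gene's strand, and bases in an exon of the gene in GENCODE M21 are left out, so that the Mpo stretch ends 204 bases before the RefSeq start. The Prtn3 stretch lies within the longer gene that GENCODE annotates. The positions are chr11:87793534-87793580 (+) for Mpo, chr10:79886062-79886246 (+) for Elane, chr10:79879417-79879613 (+) for Prtn3, chr14:56102575-56102824 (-) for Ctsg, chr19:11640852-11641101 (-) for Ms4a3 and chr7:43436888-43437072 (+) for Nkg7. Capitals mark matches, on either strand, to GAGGAA (PU.1), TGTGGT (RUNX), TTNNGNAA (C/EBP) or AACNG (MYB), and no matches overlapped.
Mpo: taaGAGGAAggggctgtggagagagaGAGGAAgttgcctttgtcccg
Elane: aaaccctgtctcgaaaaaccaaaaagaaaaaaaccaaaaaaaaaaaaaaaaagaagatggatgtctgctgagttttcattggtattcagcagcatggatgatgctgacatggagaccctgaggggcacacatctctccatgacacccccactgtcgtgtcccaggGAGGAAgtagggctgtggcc
Prtn3: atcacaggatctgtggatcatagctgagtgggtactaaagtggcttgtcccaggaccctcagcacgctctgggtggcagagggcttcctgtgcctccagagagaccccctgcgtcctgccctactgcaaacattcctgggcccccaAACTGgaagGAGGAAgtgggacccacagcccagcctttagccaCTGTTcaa
Ctsg: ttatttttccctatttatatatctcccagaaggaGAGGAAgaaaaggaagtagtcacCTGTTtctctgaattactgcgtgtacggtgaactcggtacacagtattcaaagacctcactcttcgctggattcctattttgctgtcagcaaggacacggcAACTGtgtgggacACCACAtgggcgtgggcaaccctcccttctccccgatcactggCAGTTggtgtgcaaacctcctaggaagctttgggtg
Ms4a3: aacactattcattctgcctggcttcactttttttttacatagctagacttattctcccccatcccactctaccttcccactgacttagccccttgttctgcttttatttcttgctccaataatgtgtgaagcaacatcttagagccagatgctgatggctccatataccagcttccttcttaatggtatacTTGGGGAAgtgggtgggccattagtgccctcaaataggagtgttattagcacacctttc
Nkg7: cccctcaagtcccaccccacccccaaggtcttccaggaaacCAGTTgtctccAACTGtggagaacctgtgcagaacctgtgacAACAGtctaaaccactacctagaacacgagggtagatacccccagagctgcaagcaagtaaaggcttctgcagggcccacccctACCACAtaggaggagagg
A match describes letters only and is not a bound site. Over the 250 bases before the RefSeq start, the PU.1 letters occurred in 5 of the 8 genes and in 23.3% of 32851 promoter windows of the same length. Among the 4 genes that fell, they were present in Elane, 85 bases before the start, and in Prtn3, 95 bases before it. No PU.1 match was found in the windows of Ms4a3 and Nkg7. The other genes with the PU.1 letters were Mpo, Ctsg and Ctsc, which did not pass the test. The RUNX letters occurred in 2 of the 8 genes and in 14.0% of all windows. Those 2 genes were Nkg7, which fell, and Ctsg, which did not pass the test. The C/EBP letters occurred in 1 of the 8 genes, Ms4a3, and in 36.8% of all windows, and the MYB letters in 7 of the 8 and in 74.2% of all windows.

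Mpo (ENSMUSG00000009350, chr11:87793581-87804413 in GRCm38) encodes myeloperoxidase, the heme enzyme that makes hypochlorous acid in the granule. Its normalised read count was 72943, 81448 and 70662 in the WT libraries and 68650, 69534 and 66191 in the Runx1 KO libraries. All 3 Runx1 KO libraries lay below all 3 WT libraries, by a margin that was small beside the spread within WT. The means were 75017 ± 5684 (SD, n = 3) and 68125 ± 1732 (SD, n = 3), a log2 change of -0.14 with a 95% interval from -0.32 to 0.04 (limma adjusted p = 0.233). Mpo ranked 2nd of all listed genes by mean normalised read count.

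Elane and Prtn3 are neighbours on chromosome 10, in the same orientation and 3072 bases apart, and encode neutrophil elastase and proteinase 3, 2 closely related serine proteases of the granule. Elane (ENSMUSG00000020125, chr10:79886247-79888215) was at 30586, 34764 and 28940 normalised reads in WT and at 23710, 25284 and 24872 in Runx1 KO. The groups did not overlap, and the log2 change was -0.35 (SE 0.08, 95% interval -0.54 to -0.16, limma adjusted p = 0.0242). Prtn3 (ENSMUSG00000057729, chr10:79874476-79883174) was at 24363, 30625 and 26024 in WT and at 20492, 19934 and 20084 in Runx1 KO. Here too every Runx1 KO library lay below every WT library, and the SD was 289 normalised reads in Runx1 KO against 3244 in WT (n = 3 each). Its log2 change was -0.41 (SE 0.09, 95% interval -0.62 to -0.20, limma adjusted p = 0.0193). Neither call held in every fit without 1 library. The call for Elane was lost without WT replicate 1 (adjusted p = 0.0513), Runx1 KO replicate 2 (0.0734) or Runx1 KO replicate 3 (0.0739), and that for Prtn3 without Runx1 KO replicate 2 (0.0757) or 3 (0.0658), while the log2 changes stayed between -0.41 and -0.27 for Elane and between -0.49 and -0.32 for Prtn3.

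Ctsg (ENSMUSG00000040314, chr14:56099881-56102574) encodes cathepsin G, the third of the abundant granule serine proteases. It was at 19927, 22462 and 19386 normalised reads in WT and at 20294, 19898 and 19275 in Runx1 KO. The groups overlapped, and apart from WT replicate 2 all libraries lay in the same narrow range. The means were 20592 ± 1643 and 19822 ± 514 (SD, n = 3 each), and the log2 change of -0.05 had a 95% interval from -0.22 to 0.12 (limma adjusted p = 0.629). Its sign was not stable: it was 0.01 without WT replicate 2 and 0.03 with scaling to library totals.

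Ctsc (ENSMUSG00000030560, chr7:88278085-88310888) encodes cathepsin C, the dipeptidyl peptidase that activates the granule proteases. Its normalised read count was 5067, 4612 and 5021 in WT and 4887, 4240 and 3336 in Runx1 KO. Runx1 KO replicate 1 lay among the WT libraries and replicate 3 well below them, so the spread within Runx1 KO (SD 779, n = 3) was wider than within WT (SD 250, n = 3). The log2 change was -0.25 with a 95% interval from -0.57 to 0.06 (limma adjusted p = 0.208). It was -0.38 without Runx1 KO replicate 1 (adjusted p = 0.0533) and -0.11 without Runx1 KO replicate 3 (adjusted p = 0.482).

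Ms4a3 (ENSMUSG00000024681, chr19:11629496-11640851) encodes a membrane protein whose expression marks granulocyte-monocyte progenitors and their descendants. It was at 9983, 13424 and 10407 normalised reads in WT and at 6749, 7632 and 6955 in Runx1 KO. The groups were clearly apart, with the lowest WT library above the highest Runx1 KO library. The log2 change was -0.65 (SE 0.12, 95% interval -0.93 to -0.38, limma adjusted p = 0.0107), and the call held in each of the 6 fits that left out 1 library, with an adjusted p of at most 0.0418. Ms4a2, the adjacent gene of the same family which encodes the beta chain of the high-affinity IgE receptor, fell from 901 ± 140 to 341 ± 42.1 (SD, n = 3 each), a log2 change of -1.40 (limma adjusted p = 0.00225). Of 7 tested basophil and mast cell markers, 4 fell, and the other 3 were not called and had log2 changes above 0, up to 0.57. The summed level of these markers was 12327 to 16816 in WT and 9742 to 12129 in Runx1 KO. Their part in the Ms4a3 result was not tested.

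Nkg7 (ENSMUSG00000004612, chr7:43437073-43438249) encodes a granule membrane protein known from natural killer and cytotoxic T cells and also present in early neutrophil precursors. It was at 5450, 6523 and 5547 normalised reads in WT and at 3750, 4463 and 4163 in Runx1 KO. The groups did not overlap. The log2 change was -0.50 (SE 0.09, 95% interval -0.72 to -0.28, limma adjusted p = 0.0127), and the call held in each of the 6 fits without 1 library, with an adjusted p of at most 0.0439. Markers of natural killer and cytotoxic cells had estimates below 0 as well: 10 of them, with a median log2 change of -1.45, summed to 1032 to 1187 normalised reads in WT and to 251 to 942 in Runx1 KO, and 1 of the 10, Gzmb, fell. Without Runx1 KO replicate 1, 9 of the 10 were called, and none was called without any 1 of the WT libraries or without Runx1 KO replicate 2. Their part in the Nkg7 result was not tested.

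Calr (ENSMUSG00000003814, chr8:84841850-84846934) encodes calreticulin, a chaperone of the endoplasmic reticulum that serves many glycoproteins besides myeloperoxidase. It was at 37392, 45920 and 42255 normalised reads in WT and at 34968, 37636 and 33983 in Runx1 KO. WT replicate 1 lay just below Runx1 KO replicate 2, so the groups overlapped. The log2 change was -0.23 with a 95% interval from -0.44 to -0.02. Its unadjusted p was 0.0354 and its limma adjusted p 0.105, and DESeq2, run on whole reads recovered from the scaled values, gave an adjusted p of 0.0383.

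WT replicate 2 was the highest of the 6 libraries for 7 of the 8 genes, all but Ctsc. Without that library the log2 changes of the 4 genes that fell were -0.52 for Ms4a3, -0.42 for Nkg7, -0.32 for Prtn3 and -0.27 for Elane, and all 4 kept their calls. The 8 genes together took 0.842 ± 0.071% of the reads of a WT library and 0.751 ± 0.014% of those of a Runx1 KO library (SD, n = 3 each). The fewest reads behind any value of the 8 were 3354, for Ctsc, so counting error was smaller than the spread between libraries.

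Per kilobase of exon the order of the genes was nearly the same in both genotypes. Exon length covered every annotated exon of a gene, so the order between genes depends on that annotation. In WT, Elane was highest at 31941 ± 3051 normalised reads per kilobase (SD, n = 3), followed by Mpo at 21909 ± 1660 and Ctsg at 19934 ± 1590, which overlapped. Prtn3 at 15591 ± 1873 and Calr at 14533 ± 1485 came next and overlapped as well. Nkg7 at 6389 ± 649 and Ms4a3 at 5983 ± 996 also overlapped, and Ctsc was lowest at 844 ± 43.1. In Runx1 KO, Elane was again highest at 25022 ± 829 and Ctsc lowest at 715 ± 134, and Mpo at 19896 ± 506 and Ctsg at 19189 ± 497 again overlapped. Calr at 12336 ± 656 stood above Prtn3 at 11645 ± 167 there, but these neighbours overlapped in both genotypes. Nkg7 at 4513 ± 391 and Ms4a3 at 3775 ± 245, which overlapped in WT, did not overlap in Runx1 KO.

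The level of each gene relative to Mpo in the same library does not depend on how libraries are scaled. The difference in log2 ratio to Mpo, Runx1 KO minus WT, was -0.52 for Ms4a3, -0.36 for Nkg7, -0.28 for Prtn3 and -0.21 for Elane. The ratio of Ctsg to Mpo moved the other way, by 0.08. In these 5 ratios the groups did not overlap, and each had a two-sided exact permutation p of 0.1, which is the smallest that 3 libraries against 3 allow (0.14 after adjustment over the 7 ratios). The share of all genes whose ratio to Mpo separates the groups was not computed. For the normalised read counts themselves, the groups were separate in 43.3% of all genes tested, in either direction. Ratios of Ctsc (-0.12, exact permutation p = 0.7) and Calr (-0.10, exact permutation p = 0.3) overlapped between genotypes. Elane and Prtn3 lay lower against Mpo in every Runx1 KO library than in any WT library, and Ctsg, a protease of the same granule, lay higher.

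**Figure D2:**
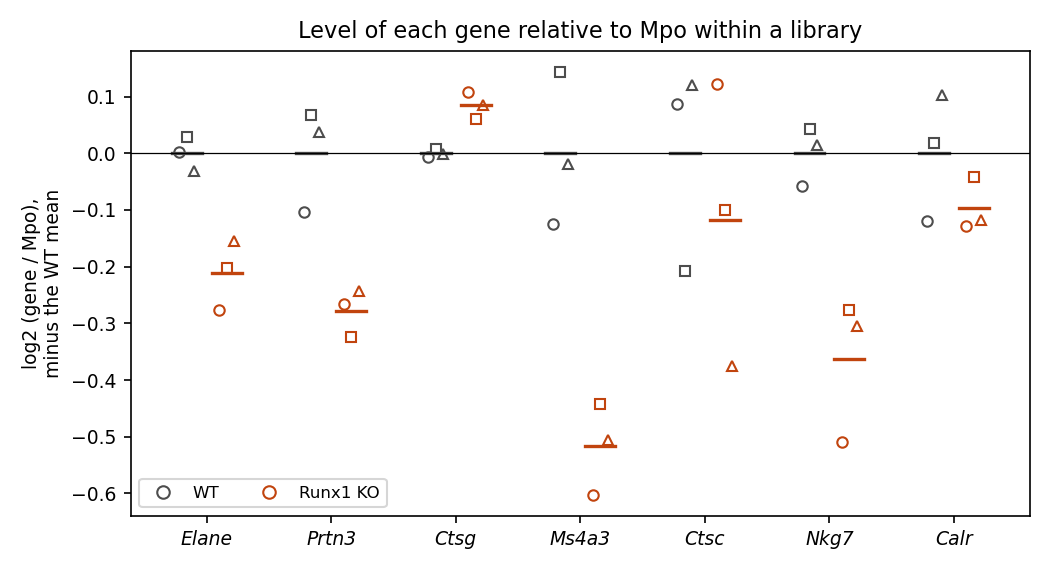
The vertical axis gives log2 of each gene's normalised read count over that of Mpo in the same library, with the WT mean set to 0; grey points are WT and orange points Runx1 KO libraries, shapes give the replicate number and bars the group means. Ms4a3 shows the largest drop (-0.52), Elane, Prtn3 and Nkg7 separate from WT as well, Ctsg lies slightly above it (0.08), and Ctsc and Calr overlap.

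Across the 6 libraries the genes moved together to different degrees. Pearson's r of each gene with the mean of the other 7 was 0.98 for Ms4a3, 0.97 for Prtn3, 0.96 for Elane, 0.94 for Nkg7, 0.92 for Mpo and 0.92 for Calr. It was 0.65 for Ctsg and 0.45 for Ctsc. The points share the genotype difference, so these values are a description over 6 libraries. The 5 other genes most like the mean profile of the 8, of 6153 genes with a mean of at least 1000 normalised reads, were Mrps14, Ptbp1, Mcm5, Tuba4a and Amdhd2, with r from 0.994 to 0.996. Ptbp1, an RNA-splicing repressor, lies close to Prtn3 and Elane on chromosome 10, at chr10:79854427-79864771. It was at 14854 ± 808 in WT and 13031 ± 223 in Runx1 KO (SD, n = 3 each). Its log2 change was -0.19 (limma adjusted p = 0.0621), and DESeq2 called it lower (adjusted p = 0.0119).

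Other genes listed with the primary granule mostly fell. Not all of them encode granule contents: Clec5a is a receptor and Serpinb1a an inhibitor. Of 15 listed, 14 were tested (Bpi was not), and 8 fell, 1 rose and 5 did not pass the test, with a median log2 change of -0.28. The count of calls was 9, and 5 without Runx1 KO replicate 2. The C-type lectin receptor Clec5a fell the most, from 3859 ± 560 to 1174 ± 321 (SD, n = 3 each; log2 change -1.74, limma adjusted p = 0.00289). The granule membrane tetraspanin Cd63 fell by 1.46 on the log2 scale, and Serpinb1a, an inhibitor of the granule proteases, by 0.79. Prss57, a further serine protease of the granule, went from 3589 ± 456 to 2140 ± 327, a log2 change of -0.75. These 4 calls held in each fit without 1 library. The calls of Ctsz, Lyz2, Ctsd and Gusb were less stable and were lost in 1, 5, 5 and 4 of those 6 fits. Srgn, the proteoglycan core that holds the granule contents, had a log2 change of -0.27 (limma adjusted p = 0.0540). It was called lower in 4 alternatives, among them DESeq2 (adjusted p = 0.0110) and limma without WT replicate 3 (adjusted p = 0.0436).

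The granule gene that rose was Lyz1, 1 of 2 mouse lysozyme genes. Lyz1 rose from 125 ± 14.8 to 532 ± 149 normalised reads (SD, n = 3 each), a log2 change of 2.04 (limma adjusted p = 0.00235), while Lyz2 went from 34524 ± 7764 to 18718 ± 6734, a log2 change of -0.92 (limma adjusted p = 0.0429). The genes are near-identical copies, so reads may have been assigned to the wrong one and both values are uncertain.

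**Figure D3:**
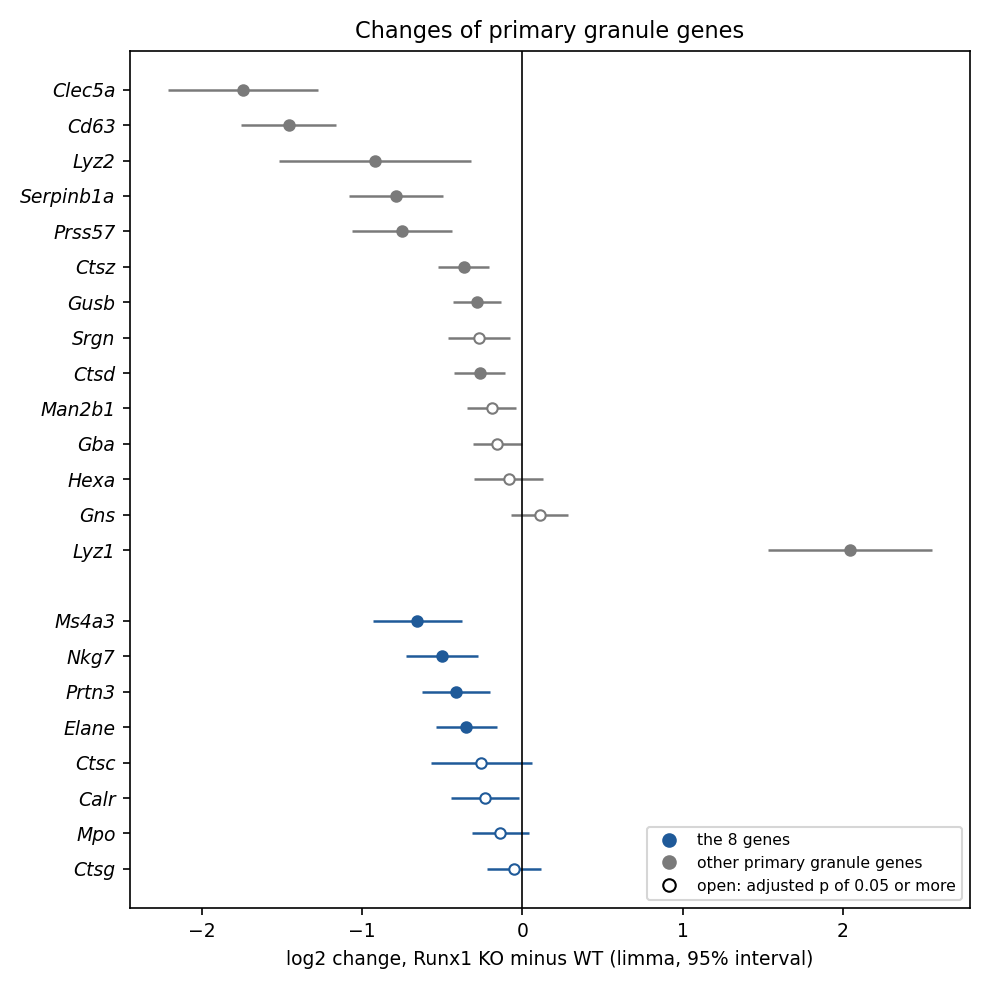
Points give the log2 change of normalised read count, Runx1 KO minus WT, and lines its 95% interval from limma (n = 3 per group). The 8 genes are blue, and 14 other genes listed with the primary granule are grey. Open points have an adjusted p of 0.05 or more. The 8 genes lie between -0.65 and -0.05. The other listed genes lie between -1.74 and 2.04, with Lyz1 alone among the calls above 0.

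Genes of inherited neutropenia and of sorting to the granule were examined as a list of their own. Of 15 tested, 3 fell and none rose, with a median log2 change of -0.05. Those that fell were Cxcr4, the receptor that holds neutrophils in the marrow (log2 change -1.29), Rab27a, a regulator of granule release (-0.37), and Was, an actin regulator (-0.31). The call of Rab27a was lost in 2 and that of Was in 4 of the 6 fits without 1 library, while that of Cxcr4 held in all 6. The count was 1 without Runx1 KO replicate 2 and 1 without Runx1 KO replicate 3, and 5 by DESeq2. Csf3r, the receptor for granulocyte colony-stimulating factor, was at 9329 ± 3219 in WT and 8371 ± 1114 in Runx1 KO (SD, n = 3 each), with a log2 change of -0.11 (limma adjusted p = 0.751). Without WT replicate 1 its log2 change was 0.15.

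Chaperones and sensors of the endoplasmic reticulum, the class to which Calr belongs, mostly did not pass the test. Of 19 tested, 2 fell, a share close to the 11.3% of all genes called lower, and none rose: Atf4, a stress-response transcription factor (log2 change -0.42, limma adjusted p = 0.00665), and Pdia6, a disulfide isomerase (-0.29, limma adjusted p = 0.0220). The estimates of 17 of the 19 lay below 0, with a median of -0.19, against -0.23 for Calr. Xbp1, which drives expansion of the secretory pathway, had a log2 change of 0.20 (limma adjusted p = 0.151). The count ranged from 1 to 4 in the fits without 1 library, being 4 without WT replicate 1 and 1 without WT replicate 3, Runx1 KO replicate 2 or Runx1 KO replicate 3. It was 5 by DESeq2 and 1 with scaling to library totals.

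Among 17 regulators of granulocyte and monocyte development, 3 rose and 5 fell. Cebpe, which directs the later granules, went from 2983 ± 539 to 1614 ± 63.3 (SD, n = 3 each), a log2 change of -0.87 (limma adjusted p = 0.00488). Myb, a regulator of immature progenitors and of the early granule genes, rose from 11012 ± 1002 to 15892 ± 1022, a log2 change of 0.53 (limma adjusted p = 0.00766). Cebpa, which starts the granulocytic programme, was at 2575 ± 96.6 and 2494 ± 154, with a log2 change of -0.05 (limma adjusted p = 0.642). Its sign turned with scaling to library totals (0.03) and without Runx1 KO replicate 3 (0.0046). Gfi1, a repressor that favours granulocytes over monocytes, had a log2 change of 0.53 (limma adjusted p = 0.0543). It was called higher in 6 alternatives, among them DESeq2 (adjusted p = 0.00775) and limma without Runx1 KO replicate 1 (adjusted p = 0.0391). Spi1, which encodes PU.1, fell by 0.36 and Cebpd rose by 0.36, and each call was lost in 5 of the 6 fits without 1 library. The other calls were Runx1 itself, Irf4 (-4.59), Klf4 (-2.47) and Csf2ra (-0.59). That of Csf2ra was lost without Runx1 KO replicate 2 (limma adjusted p = 0.0540). That of Irf4 held in each fit without 1 library but was lost in limma-voom (adjusted p = 0.0596). Irf4 varied widely in WT, at 5487, 703 and 1213 normalised reads, against 174, 34.7 and 52.7 in Runx1 KO. The count of calls was 5 without Runx1 KO replicate 2.

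Genes of the later granules and of mature neutrophils also fell. Of 15 tested, 11 fell and none rose, with a median log2 change of -1.95, and the count was 7 without Runx1 KO replicate 2. Fcnb went from 7257 ± 1627 to 1728 ± 182 (SD, n = 3 each), and Camp, an antimicrobial peptide of secondary granules, fell by 2.43 on the log2 scale. The summed level of these 15 genes was 351759, 265725 and 224546 in WT and 120862, 49806 and 40865 in Runx1 KO, so WT replicate 1 and Runx1 KO replicate 1 stood above the others of their group. The sums of the 8 genes did not follow that order, at 205710, 239778 and 208242 in WT and 183499, 188622 and 178858 in Runx1 KO. The mean log2 level of the later genes minus that of the 8 genes was -0.20, -1.23 and -1.24 in WT and -1.66, -2.94 and -3.02 in Runx1 KO. The groups did not overlap, the difference was -1.65 on the log2 scale, and the exact two-sided permutation p was 0.1, the smallest possible. The same difference for the 14 other genes listed with the primary granule was -0.04 (exact two-sided permutation p = 0.5). That mean includes Lyz1, whose log2 change of 2.04 is uncertain and opposite to most of the list. The difference without Lyz1 was not computed, so the value does not show that the other listed genes moved as the 8 did. Both contrasts were chosen after the values were seen.

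**Figure D4:**
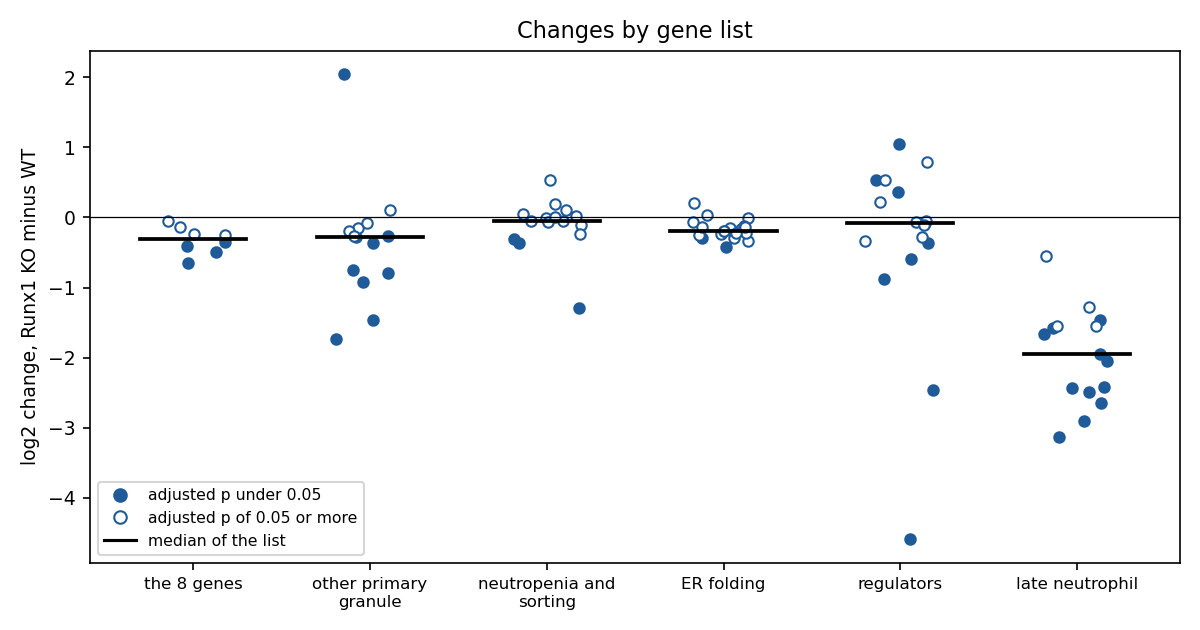
Each point is 1 tested gene and the vertical axis is its log2 change, Runx1 KO minus WT, for the 8 genes and 5 lists; filled points have a limma adjusted p under 0.05 and bars give list medians. The medians run from -0.05 for neutropenia and sorting genes through -0.30 for the 8 genes to -1.95 for late neutrophil genes.

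Markers of other cells in the marrow moved too, and their part in the changes of the 8 genes was not tested. Stem and multipotent cell markers rose in 7 of 11, with a summed level of 20501 to 24143 in WT and 30875 to 35452 in Runx1 KO. The count was 4 without Runx1 KO replicate 2. Of 11 monocyte markers 3 fell and 1 rose, and their sums overlapped (56097 to 71953 in WT, 49114 to 68356 in Runx1 KO). The count was 8 without Runx1 KO replicate 1. Of 5 megakaryocyte markers 4 rose, with counts of 2 without WT replicate 1 or 2 and 1 without Runx1 KO replicate 2. The remaining 1 was not called but went the other way. Its log2 change was -0.89, and every Runx1 KO library lay below every WT library. Of 7 B-lymphoid markers 5 fell, with counts of 3 without WT replicate 3, 1 without Runx1 KO replicate 2 and 2 without Runx1 KO replicate 3. Of 8 eosinophil markers 3 fell, and 1 was called without Runx1 KO replicate 2. Of 7 erythroid markers 2 fell, and 5 were called without Runx1 KO replicate 1. None of 6 T-lymphoid markers was called by limma with genotype alone and all libraries (2 had an unadjusted p under 0.05), but 6 were without Runx1 KO replicate 1, and 1 each by DESeq2 and by limma-voom.

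The genes next to the 8 on the chromosome were also compared. Of the nearest measured protein-coding genes on either side, Tspoap1, 7652 bases from Mpo, had a log2 change of 0.40 (limma adjusted p = 0.0409, a call lost in 5 of the 6 fits without 1 library), and Lpo, 2014 bases from Mpo on the other side and itself a peroxidase gene, one of 0.38 (limma adjusted p = 0.175). Rab38, 119384 bases from Ctsc, had a log2 change of 0.33 (limma adjusted p = 0.0388, a call lost in 5 of those 6 fits). Lim2, 1076 bases from Nkg7, went from 17.4 ± 3.73 to 37.4 ± 11.2 (SD, n = 3 each), a log2 change of 1.04 (limma adjusted p = 0.0555), and was called higher in 4 alternatives. Plppr3, which overlaps the annotated Prtn3 gene by 159 bases on the opposite strand, was at 3535 ± 236 and 3948 ± 378 (SD, n = 3 each), with a log2 change of 0.16 (limma adjusted p = 0.233). Whether counting used the strand is not given in the sources used here. Beside Ctsg, in the cluster of mast cell and granulocyte proteases on chromosome 14, lies the basophil protease gene Mcpt8, 14607 bases away. Mcpt8 fell from 1662 ± 198 to 132 ± 10.4 (SD, n = 3 each), a log2 change of -3.64 (limma adjusted p = 0.000111), and the log2 change of Ctsg was -0.05.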

How the data were processed

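RNA sequencing of 6 libraries (3 WT, 3 Runx1 KO) was analysed. Reads were aligned and counted with HISAT2 and HTSeq 0.9.1 on mm10 (GRCm38), per the submitters' processing notes. The scaling is not given in the sources used here. The deposited values are a signal in which the reads of a gene are scaled by 1 factor per library, called normalised read count. In each library 100% of values were whole multiples of 1 step within 0.001, and the steps matched recomputed DESeq2 size factors. In 4 of the 6 libraries the step lay within about 1% of 1, so a check of the steps that cannot judge values near 1 covered only the other 2. Tests on these recovered reads serve as alternatives only. No listed gene had fewer than 10 recovered reads in all.

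The main test was limma 3.58.1 (R 4.3.3) with a mean trend on log2(normalised read count + 1), fitting genotype alone. Its two-sided p-values were adjusted by Benjamini-Hochberg over the 15410 genes passing filterByExpr (minimum count 10, minimum total 15). The log2 scale with a pseudocount of 1 understates changes of weakly expressed genes. Called means an adjusted p under 0.05. At that threshold 3370 genes were called, 1631 higher and 1739 lower. Ratios between genes were tested by exact permutation over libraries. The 8 genes and all lists were chosen with earlier results of these data known. The genes named are those on the lists, the nearest measured protein-coding neighbours of the 8, and the 5 genes with the most similar profile; 1 gene of the primary granule list is not reported here. Symbols came from a supplied table (20077 of 20097 identifiers), and coordinates and exon lengths from GENCODE M21 on GRCm38. Alternatives were edgeR 4.0.16, DESeq2 1.42.0 and limma-voom on recovered reads, other filters, pseudocounts and scalings, a replicate block, and leaving out each library. The main script was tested on simulated data.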

Additional observations from a re-analysis of the deposited data

How the results depend on the processing

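The 4 calls among the 8 genes (Ms4a3, Nkg7, Prtn3, Elane) held in each of the 12 alternatives that kept all libraries. Calr passed the threshold in 2 of these, DESeq2 (log2 change -0.239) and limma with the replicate block (-0.233, adjusted p = 0.0494), so that 5 genes were called there. Ctsg turned to 0.030 with library totals and to 0.029 with library totals without the 8 genes. Scaling to library totals moved the median of all genes by 0.08 and the share of calls that were higher from 48.4% to 63.5% (63.3% without the 8 genes). With the mean of the 8 genes in place of Mpo as the reference, the log2 ratios were -0.0243 for Elane, -0.0902 for Prtn3, 0.27 for Ctsg, -0.33 for Ms4a3, 0.0695 for Ctsc, -0.18 for Nkg7 and 0.091 for Calr. Each was higher than against Mpo, because the mean of the 8 genes fell more in Runx1 KO than Mpo did. The value for Elane was much smaller than the -0.21 against Mpo, and those of Ctsc and Calr changed sign.

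Leaving out 1 library at a time gave 2 to 4 called genes of the 8 (2 without Runx1 KO replicate 2 and 2 without Runx1 KO replicate 3). All genes called ranged from 1367 to 3597 (2208 without WT replicate 2, 1367 without Runx1 KO replicate 2, 1767 without Runx1 KO replicate 3), those higher from 632 to 1634, those lower from 735 to 1963, and calls in the other 14 lists from 34 (without Runx1 KO replicate 2) to 86, against 62. Log2 changes ranged from -0.41 to -0.27 for Elane, -0.49 to -0.32 for Prtn3 and -0.094 to 0.012 for Ctsg. Log2 ratios to Mpo ranged from -0.24 to -0.18 for Elane, -0.33 to -0.24 for Prtn3, 0.073 to 0.096 for Ctsg, -0.58 to -0.45 for Ms4a3, -0.24 to 0.011 for Ctsc, -0.41 to -0.29 for Nkg7 and -0.16 to -0.045 for Calr. Fewer samples enter these fits. Cebpa reversed to 0.035 and 0.034 with the library-total scalings and to 0.0046 without Runx1 KO replicate 3 (range without 1 library -0.078 to 0.0046), and Csf3r to 0.15 without WT replicate 1 (range -0.30 to 0.15).

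The replicate numbers are shared between the groups, but the deviations of same-numbered libraries correlated at 0.29, 0.13 and -0.01, so the numbers were not taken as pairs, and not every library correlated best with its own number. With the replicate block, limma called 3843 genes, against 3370 without it, and edgeR called 3685, against 3261 without it. With that block limma called 6 genes of endoplasmic reticulum folding and 2 T-lymphoid markers, against 2 and 0 without it.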
